A study of Mus musculus with 6 samples.

Results

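The cytosolic ribosomal proteins are described here on 6 one-color mouse arrays, 3 hybridized with RNA of 1G11-mock cells and 3 with RNA of 1G11-SOD3 cells. A spot was a member when its annotated gene symbol was Rpsa, Rpl or Rps with a number (with at most a letter, or an l and a digit, after it), or Rplp0, Rplp1 or Rplp2, and the Rps6k kinases were left out. The rule took 177 spots, 168 probes and 81 genes out of 59305 spots, 55681 probes and 22276 gene symbols. 1G11 is a mouse microvascular endothelial cell line of strain C57BL/6NCrLBR, and the 1G11-SOD3 line overexpresses SOD3, the extracellular superoxide dismutase. N202.1A is a mouse mammary cancer line, and its conditioned medium was given to both 1G11 lines for 6 h. The comparison is of the 1G11-SOD3 line with the 1G11-mock line under that medium, and no unexposed cells were measured. The overexpressed gene cannot be told apart from other differences between the lines. Each group is 1 line, and whether it is a clone or a pool is not given in the sources used here. The study describes the arrays as independent experiments, while the labels do not say whether a line's samples came from separate cultures, so p-values measure only the spread between these arrays, part of which may be technical.

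Ribosomal proteins of the small subunit (Rps genes and Rpsa) and the large subunit (Rpl genes) assemble with ribosomal RNA in the nucleolus into the particles that read mRNA and join amino acids. The acidic proteins Rplp0, Rplp1 and Rplp2 form the stalk of the large subunit, where elongation factors bind. Their mRNAs are among the most abundant of a growing cell, several of them serve as reference genes, and many begin with a run of pyrimidines, the terminal oligopyrimidine tract, through which mTOR signaling controls their translation.

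The rule reports apart the spots that lie in the middle of the array, in rows 129 to 256 of 384 and columns 55 to 109 of 164, where many spots of the 1G11-mock arrays were dim. Averaging the spots of a probe separately at both positions gave 148 member features of 74 genes elsewhere on the array and 21 of 20 genes in the middle. Between 20284 and 25956 spots an array were well above background (between 34.2% and 43.8% of all non-control spots), and no spot was saturated. Of the 1G11-mock arrays, replicate 3 stood apart in the middle. Over 1164 features of the middle that were well above background on all arrays, its median deviation from the feature's mean was -1.24 on the log2 scale, against -0.04 and -0.21 on the other 1G11-mock arrays and 0.59, 0.47 and 0.54 on the 1G11-SOD3 arrays. The 3 arrays of a line lay in the same row of the slide, and the lines lay in different rows, so cell line and slide row cannot be told apart. The Sod3 probe also lay in the middle. Its normalized log2 intensity was 13.61, 12.66 and 9.86 on the 1G11-mock arrays and 16.37, 16.29 and 16.27 on the 1G11-SOD3 arrays, a log2 fold change of 4.27 ± 0.703 (standard error, n = 3 per group, limma adjusted p = 0.00764; adjusted p = 0.0505 without replicate 3 of 1G11-SOD3). With a smooth surface of array position subtracted, as for the members, it was 2.70 (adjusted p = 0.0132), and with the scanner's processed signal 3.40 (adjusted p = 0.0206). Of 12 endothelial markers, 4 (Kdr, Eng, Vwf and Esam) were well above background on all arrays and 5 (Cdh5, Tie1, Tek, Emcn and Erg) on none, whereas of 6 epithelial markers Krt19, and of 5 blood cell markers Cd3e and Itgam, were well above background on all arrays.

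Near-identical probes at both positions show how the values of these genes depended on position. Each probe is a 60-base oligonucleotide, and several ribosomal protein genes had almost the same oligonucleotide at both positions. With at least 40 identical bases as the limit, 7 genes had such a pair. For 4 of them, 30 bases of the aligned probes are shown, first the probe in the middle and then the probe elsewhere, with capitals at the bases that differ within the pair.
Rplp0 middle: tcGgAggaatcagatgagGatatgggattT
Rplp0 elsewhere: tcAgTggaatcagatgagAatatgggattC
Rpl36a middle: gattgcagttgttcTtttgggagggaataA
Rpl36a elsewhere: gattgcagttgttcGtttgggagggaataC
Rpl7 middle: gttaataaacagtcacagcttggcaaaTTG
Rpl7 elsewhere: gttaataaacagtcacagcttggcaaaAAA
Rpl36 middle: gGCggcggcCAAGaaggattgatgaaccct
Rpl36 elsewhere: gAAggcggcGGCCaaggattgatgaaccct

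Over the overlap of both oligonucleotides, 48 of 53 bases were identical for Rplp0, 53 of 55 for Rpl36a, 51 of 55 for Rpl7 and 54 of 60 for Rpl36. The log2 fold change of 1G11-SOD3 over 1G11-mock was nevertheless 2.39 for the Rplp0 probe in the middle and -0.42 for the one elsewhere. For Rpl36a the values were 2.46 and -0.17, for Rpl7 2.37 and -0.11, and for Rpl36 1.85 and -0.02. Rpl13a (0.87 and -0.40, 41 of 55 bases) and Rpl17 (1.30 and 0.07, 46 of 57 bases) had the same order. Each of these 7 pairs was higher in the middle, by 1.23 to 2.81.

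Rpl23, a large subunit protein, had the same probe at both positions. Its 7 copies elsewhere gave log2 fold changes between -0.68 and 0.75 with a median of -0.27, and its 3 copies in the middle gave 0.98, 1.68 and 2.25. The averaged copies elsewhere read 13.24, 12.86 and 12.99 on the 1G11-mock arrays and 12.99, 12.73 and 13.08 on the 1G11-SOD3 arrays. In the middle the same probe read 12.49, 11.57 and 9.78 on the 1G11-mock arrays and 12.94, 12.61 and 13.21 on the 1G11-SOD3 arrays. The 1G11-SOD3 arrays thus read alike at both positions, and the 1G11-mock arrays were lower in the middle.

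Taken array by array, the log2 intensity of the copy in the middle minus that elsewhere was -0.76, -1.29 and -3.20 for Rpl23 on the 1G11-mock arrays and -0.05, -0.12 and 0.13 on the 1G11-SOD3 arrays. For Rplp0 it was -0.64, -1.70 and -3.44 against 0.68, 0.80 and 1.18. For Rpl36a it was -1.49, -1.54 and -5.01 against -0.35, -0.15 and 0.34. The lowest value of each of the 7 pairs was on replicate 3 of 1G11-mock. The groups did not overlap for 5 pairs and overlapped for Rpl17 and Rpl36, and an exact two-sided permutation test of 3 arrays against 3 cannot give a p below 0.1. As a comparison, 8 pairs of overlapping probes of 6 genes that both lay elsewhere differed in their log2 fold change by 0.03 to 0.83, with a median of 0.23. The 7 pairs that straddled the positions had a median of 1.87. Identical bases of the 8 pairs ran from 54 of 60 to 52 of 52. Rpl13a (41 of 55) and Rpl17 (46 of 57) were less alike, so for them position and sequence cannot be told apart. Rpl23, the same probe at both positions, differed by 1.74.

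**Figure D1:**
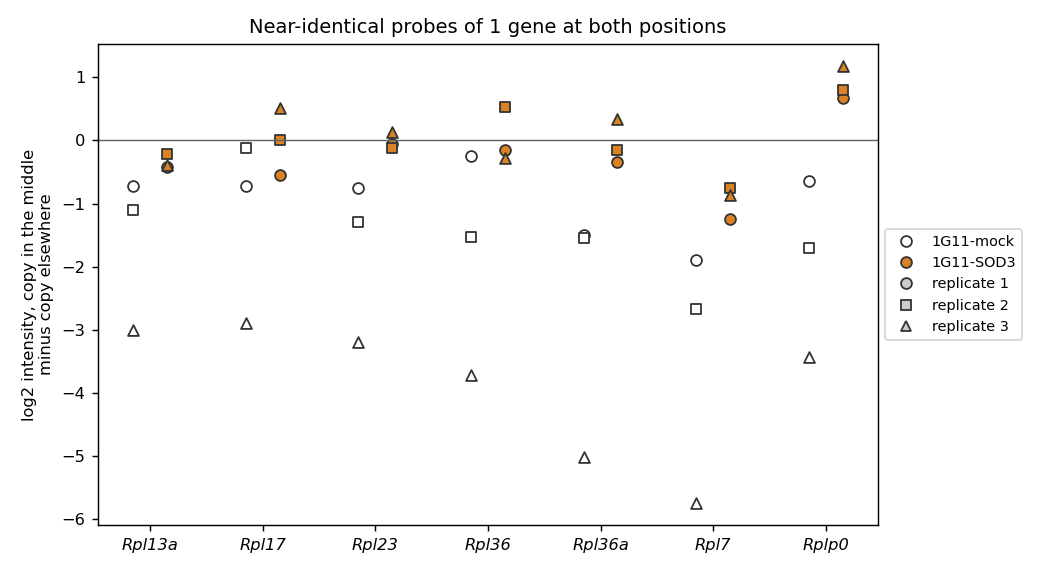
Log2 intensity of the copy in the middle of the array minus that of the near-identical copy elsewhere, for 7 ribosomal protein genes on the horizontal axis; each point is 1 array, open for 1G11-mock and filled for 1G11-SOD3, with a shape for each replicate. Replicate 3 of 1G11-mock is the lowest point of every pair, between -2.89 and -5.75.

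Elsewhere on the array, the ribosomal protein genes as a group differed little between the cell lines after quantile normalization. With a call defined as a change over 2-fold that had a limma adjusted p under 0.05, 1 of 148 features rose in 1G11-SOD3 and 0 fell. At an unadjusted p under 0.05, 11 were higher and 6 lower, together 11.5% of the members beside 12.7% of all features elsewhere. Over all 49526 features tested elsewhere, 0.666% were called higher and 1.19% lower. Among the 15248 that were well above background on all arrays, 198 (1.3%) were called higher and 499 lower. At an adjusted p under 0.05 and any size the members' count was again 1, with 2.01% of all features called. The log2 fold changes of the features that were not called ran from -0.99 to 1.47. The median of all 148 was -0.11, beside -0.06 over all features elsewhere and -0.17 over the bright ones. With position removed it was 0.03, beside 0.09 over all features elsewhere. Without quantile normalization it was 0.05 with the scanner's processed signal and -0.05 with scaling to the 75th percentile. All features elsewhere then had medians of -0.49 and -0.35, so the members' place among all features depended on the normalization. The quartiles of the members were -0.26 and 0.16, and 124 of 148 were closer to 0 than 0.5. In RNA from whole cultures, fewer cells of a kind and less RNA per cell cannot be told apart.

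On the single arrays, the median deviation of the 132 members elsewhere with a value and a signal well above background on all arrays was 0.03, 0.01 and 0.11 on the 1G11-mock arrays and 0.02, 0.04 and -0.03 on the 1G11-SOD3 arrays, so the groups overlapped. Of the 141 features with a value on all arrays, 16 had every 1G11-SOD3 array above every 1G11-mock array and 9 had every one below. Such separation was found for 8.26% (higher) and 11.4% (lower) of all features elsewhere. Among features well above background and with a value on all arrays, 1229 of 15178 were apart higher and 3135 lower. The 132 members among them had 15 higher and 9 lower. The large subunit (91 features, median -0.10) and the small subunit (53 features, median -0.13) had similar medians. With the replicate number as a block the count of members called elsewhere was 2 in place of 1, the second being a probe of Rpl17. Leaving out replicate 1 of 1G11-SOD3 gave 3 called features, adding Rpl17 and, lower, Rps3.

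**Figure D2:**
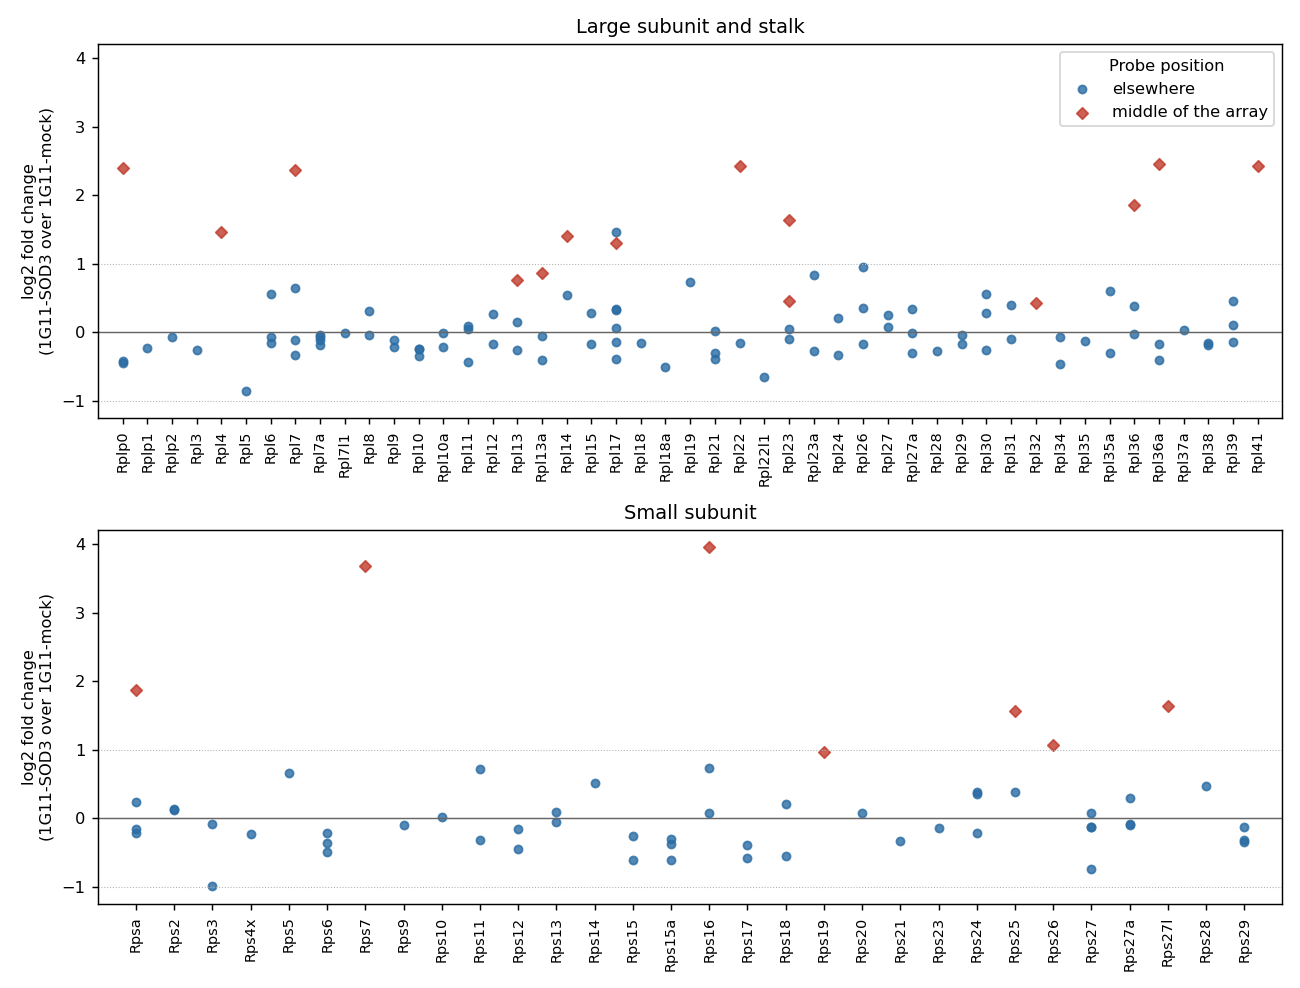
Log2 fold change of ribosomal protein probes that were well above background on at least 1 array (vertical axis), grouped by gene (horizontal axis), for the large subunit and stalk above and the small subunit below; circles are features elsewhere and diamonds features in the middle of the array, and dotted lines mark 2-fold. The features shown elsewhere lie between -0.99 and 1.47, and each of the 21 diamonds lies above 0, the highest at 3.96.

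The highest features elsewhere that did not pass the threshold were of both subunits. A probe of Rpl17 (A_55_P1998461), a protein near the exit tunnel of the large subunit, read 9.93, 10.21 and 9.05 on the 1G11-mock arrays and 10.43, 11.77 and 11.39 on the 1G11-SOD3 arrays, a log2 fold change of 1.47 ± 0.378 (adjusted p = 0.0654; 0.0275 with the replicate block). Its groups did not overlap, and the 5 other Rpl17 probes elsewhere lay between -0.38 and 0.35. Rpl26 (A_55_P2080907), which is also known to bind p53 mRNA, read 16.48, 16.31 and 16.04 against 17.57, 16.93 and 17.22, a log2 fold change of 0.96 ± 0.247 (adjusted p = 0.0652). Rpl23a (A_55_P2109874), at the exit of the peptide tunnel, read 17.24, 17.53 and 16.41 against 17.79, 17.89 and 18.03, a log2 fold change of 0.84 (adjusted p = 0.186). Rps16 (A_55_P2132844), a small subunit protein near the decoding site, read 16.65, 16.85 and 16.25 against 17.45, 17.24 and 17.26, a log2 fold change of 0.73 (adjusted p = 0.148). All 4 had every 1G11-SOD3 array above every 1G11-mock array, and replicate 3 of 1G11-mock was the lowest.

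At the other end, Rps3 (A_51_P318640), a small subunit protein that also takes part in DNA repair, read 15.55, 15.52 and 15.41 on the 1G11-mock arrays and 15.50, 14.29 and 13.74 on the 1G11-SOD3 arrays, a log2 fold change of -0.99 ± 0.373 (adjusted p = 0.236). The groups overlapped through replicate 1 of 1G11-SOD3, and without that array the value was -1.48 (adjusted p = 0.0269). The other Rps3 probe, A_55_P2038237, had a log2 fold change of -0.08. Rpl5 (A_55_P2024012), which carries 5S ribosomal RNA and with Rpl11 restrains Mdm2, read 16.25, 16.45 and 16.55 against 15.39, 15.61 and 15.71. All 3 of its 1G11-SOD3 arrays were lower, and its log2 fold change was -0.85 ± 0.221 (adjusted p = 0.0675). Rps27 (A_55_P2155438), a zinc finger protein of the small subunit, read 18.12, 18.10 and 18.22 against 17.18, 17.33 and 17.69, a log2 fold change of -0.75 (adjusted p = 0.123). Rps15 (A_66_P124555), needed for export of the small subunit from the nucleus, read 16.76, 16.61 and 16.80 against 15.88, 16.23 and 16.23, a log2 fold change of -0.61 (adjusted p = 0.211). Both had every 1G11-SOD3 array below every 1G11-mock array, whereas 3 other Rps27 probes had log2 fold changes between -0.13 and 0.08.

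**Figure D3:**
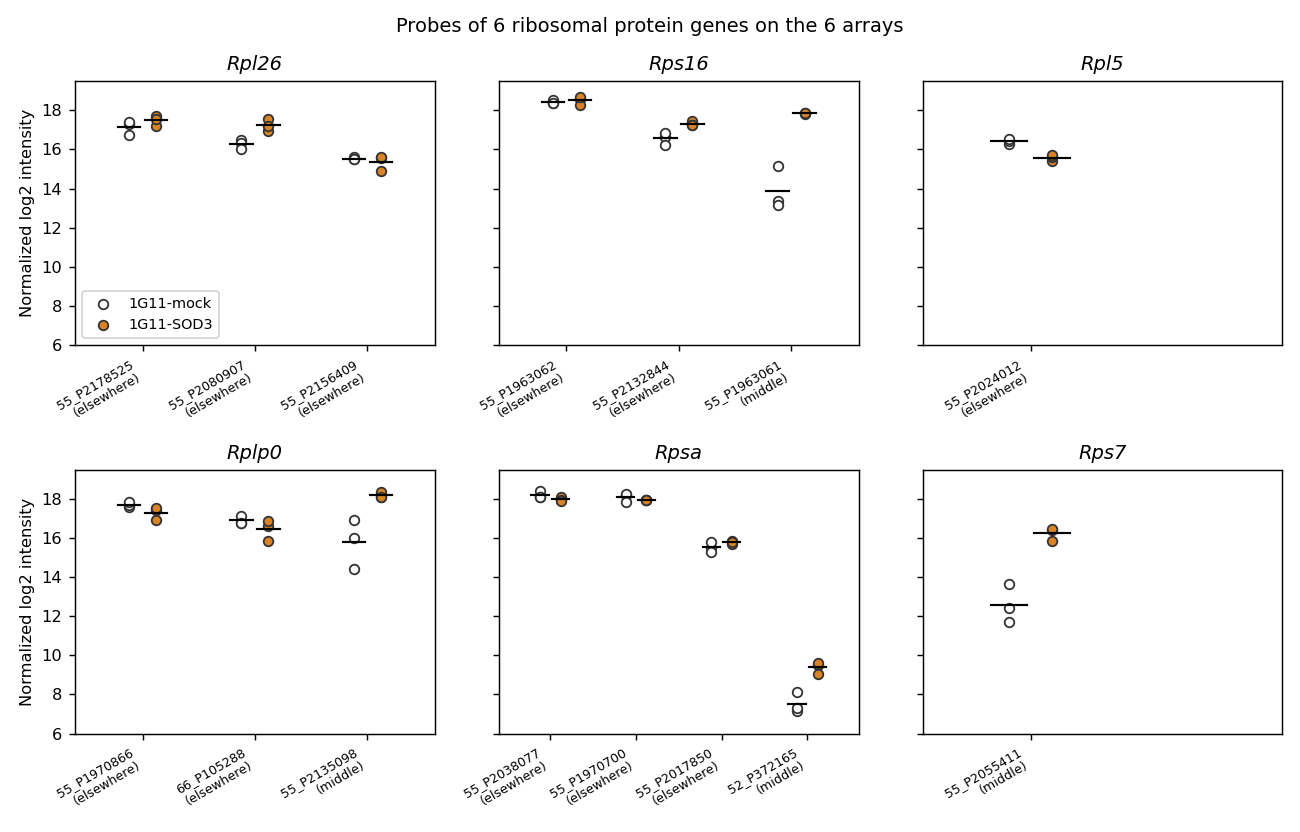
Normalized log2 intensity (vertical axis) of the probes of Rpl26, Rps16, Rpl5, Rplp0, Rpsa and Rps7 (horizontal axis, with each probe's position); open circles are the 3 1G11-mock arrays, filled circles the 3 1G11-SOD3 arrays and lines the group means. The groups are apart with 1G11-SOD3 higher for A_55_P2080907 of Rpl26 (by 0.96), A_55_P2132844 of Rps16 and the 4 probes in the middle, and with 1G11-SOD3 lower for A_55_P1970866 of Rplp0 and the Rpl5 probe, while the other probes overlap.

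The stalk genes did not pass the test elsewhere. Rplp0, also a common reference gene, read 17.59, 17.71 and 17.85 on the 1G11-mock arrays and 17.42, 17.55 and 16.93 on the 1G11-SOD3 arrays with its brightest probe elsewhere, a log2 fold change of -0.42 ± 0.24 (adjusted p = 0.478). Rplp1 read 17.90, 17.71 and 18.04 against 17.97, 17.46 and 17.52, a log2 fold change of -0.23 (adjusted p = 0.721). Rplp2 read 18.23, 18.24 and 18.19 against 18.29, 17.96 and 18.21, a log2 fold change of -0.06 (adjusted p = 0.931). The 4 stalk features elsewhere lay between -0.44 and -0.06, while Rplp1 and Rplp2 were at 0.073 and 0.005 with the position surface subtracted. Rpsa, a small subunit protein also known as the laminin receptor, read 18.39, 18.12 and 18.13 against 18.12, 17.97 and 17.90 with its brightest probe, a log2 fold change of -0.21 ± 0.217 (adjusted p = 0.719). Its other probes elsewhere gave -0.16 and 0.24.

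Rps6, whose phosphorylation by S6 kinases is a readout of mTOR activity, read 17.91, 18.11 and 17.99 on the 1G11-mock arrays and 16.82, 18.36 and 18.20 on the 1G11-SOD3 arrays, a log2 fold change of -0.21 ± 0.359 (adjusted p = 0.846). Replicate 1 of 1G11-SOD3 was low and the other arrays lay together, and without it the value was 0.28. The other Rps6 probes gave -0.50 and -0.36. Rpl11, the partner of Rpl5, read 18.16, 18.16 and 18.11 against 18.22, 18.41 and 18.08, a log2 fold change of 0.09 (adjusted p = 0.895). The groups overlapped for the brightest probe of both genes, while for the Rps6 probe at -0.50 they were apart, with 1G11-SOD3 lower. Of the reference genes, Rpl13a read 16.90, 16.50 and 17.54 against 17.32, 16.43 and 17.03, a log2 fold change of -0.05 (adjusted p = 0.962). Rps18 read 16.85, 16.38 and 17.14 against 17.06, 17.15 and 16.78. Its log2 fold change was 0.21 (adjusted p = 0.771), beside -0.55 for another Rps18 probe. Neither reference gene passed the test.

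Some ribosomal proteins have a paralog that is used in few tissues. Rpl3l (known from striated muscle), Rpl10l (known from testis, with both of its probes) and Rpl39l (known from testis) were well above background on no array, and no fold is given for them. Rpl3l read 6.59, 6.89 and 6.96 on the 1G11-mock arrays and 7.11, 7.14 and 7.11 on the 1G11-SOD3 arrays, the brighter Rpl10l probe 7.02, 6.69 and 7.34 and 7.32, 7.58 and 6.75, and Rpl39l 6.92, 7.02 and 7.59 and 6.84, 6.81 and 7.14. The widely used partners were bright on all arrays. Rpl3 read 17.78, 17.97 and 17.93 against 17.87, 17.66 and 17.41, a log2 fold change of -0.25 (adjusted p = 0.677). For Rpl10 the brightest probe read 18.27, 18.39 and 18.63 on the 1G11-mock arrays and 18.51 and 17.85 on replicates 1 and 2 of 1G11-SOD3, its spot on replicate 3 being an outlier that was left out, and the log2 fold change was -0.25 (adjusted p = 0.759). Rpl39 read 17.19, 16.73 and 17.50 against 17.22, 16.95 and 16.86, a log2 fold change of -0.13 (adjusted p = 0.866). The groups overlapped for each of these.

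In 3 other pairs both paralogs had signal. Rpl22 read 16.57, 16.31 and 16.38 on the 1G11-mock arrays and 15.60, 16.72 and 16.46 on the 1G11-SOD3 arrays with its probe elsewhere, a log2 fold change of -0.16 (adjusted p = 0.858). Its paralog Rpl22l1 read 16.89, 15.01 and 16.69 against 15.37, 15.83 and 15.44, a log2 fold change of -0.65 ± 0.42 (adjusted p = 0.535). The 1G11-mock arrays of Rpl22l1 spread over nearly 2 log2 units, more than the difference between the groups. Rpl7 read 17.84, 17.80 and 17.89 against 17.78, 17.43 and 17.98, a log2 fold change of -0.11 (adjusted p = 0.876). Rpl7l1 read 9.18, 9.09 and 10.25 against 9.42, 9.62 and 9.46, a log2 fold change of -0.01 (adjusted p = 0.997). Rps27 read 18.06, 18.13 and 18.11 against 18.11, 18.17 and 17.63 with its brightest probe, which differed by -0.13 (adjusted p = 0.851), and Rps27l, a p53 target, was measured only in the middle (1.63, adjusted p = 0.156). None of these features passed the test in either direction.

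In the middle of the array, 6 of 21 ribosomal protein features were called higher in 1G11-SOD3 and 0 lower. Of all 6435 features tested there 11.9% were called higher and 0.0622% lower. Of those well above background on all arrays, as 20 of the 21 members were, 24.2% were called higher. Of these 20 members, 5 were called higher. At any size the count over all 21 members was also 6, beside 12.2% of all features. All 21 log2 fold changes were positive, from 0.42 to 3.96 with a median of 1.63, and the median over the bright features of the middle was 1.02. The groups did not overlap, with 1G11-SOD3 higher, for 19 of the 20 members with a value on all arrays and with it lower for 0, beside 27.2% and 1.67% of all features in the middle. Among those also well above background on all arrays, the separation with 1G11-SOD3 higher held for 18 of 19 members. It held for 688 of all 1164 such features in the middle, and 14 were apart with 1G11-SOD3 lower. Replicate 3 of 1G11-mock was the lowest 1G11-mock array for 19 of 21 members, and their median deviation was -0.0004, -0.16 and -2.40 on the 1G11-mock arrays against 0.86, 0.74 and 1.00 on the 1G11-SOD3 arrays. Without that array 7 features were called, and without each other array in turn between 4 and 9.

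The called features in the middle belonged to both subunits. Rps16 (A_55_P1963061) read 15.15, 13.34 and 13.18 on the 1G11-mock arrays and 17.83, 17.86 and 17.86 on the 1G11-SOD3 arrays, a log2 fold change of 3.96 ± 0.43 (adjusted p = 0.00076). Its probes elsewhere gave 0.08 and 0.73, so 3 probes of 1 gene spanned nearly 4 log2 units. Rps7, a small subunit protein that also binds Mdm2, had a single probe, which read 13.64, 12.41 and 11.71 against 16.44, 15.86 and 16.49, a log2 fold change of 3.68 ± 0.413 (adjusted p = 0.00094). Rpl41, one of the smallest proteins known, also had only this probe and read 17.06, 15.38 and 16.16 against 18.67, 18.62 and 18.59, a log2 fold change of 2.43 (adjusted p = 0.00414). Rpl22 (A_52_P391718) read 10.88, 10.29 and 8.44 against 12.61, 11.82 and 12.46, a log2 fold change of 2.43 (adjusted p = 0.0252), beside -0.16 elsewhere. The call on Rpl22 was lost when replicate 2 of 1G11-mock (adjusted p = 0.0715), replicate 1 (0.0949) or replicate 3 (0.116) of 1G11-SOD3 was left out.

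Rplp0 (A_55_P2135098) read 16.95, 16.01 and 14.41 on the 1G11-mock arrays and 18.10, 18.35 and 18.11 on the 1G11-SOD3 arrays, a log2 fold change of 2.39 (adjusted p = 0.0237). A dim Rpsa probe (A_52_P372165) was well above background on 0 of the 1G11-mock arrays and on all 3 of 1G11-SOD3, at 8.13, 7.13 and 7.30 and 9.51, 9.03 and 9.61. As measured, it was at least 3.6-fold higher in 1G11-SOD3 (limma adjusted p = 0.00643). For this bound each 1G11-mock array counted with the probe's own reading or the array's lowest signal well above background, whichever was higher. With the position surface subtracted its log2 fold change was 0.07. The call on Rplp0 was lost without replicate 2 of 1G11-mock (adjusted p = 0.0838) and without replicate 1 (0.0688), 2 (0.0671) or 3 (0.096) of 1G11-SOD3, whereas Rpsa remained called without each array in turn. Both genes thus had a called probe in the middle, and probes elsewhere that did not pass the test. Rpl36a (A_55_P1956707), at 15.04, 14.86 and 11.29 against 16.50, 16.05 and 16.01, had a larger log2 fold change (2.46 ± 0.763) but missed the threshold (adjusted p = 0.133, 0.0295 with the replicate block). Without replicate 3 of 1G11-mock its log2 fold change was 1.24 with an adjusted p of 0.0362 by limma.

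The lowest values of the middle were those of Rpl32 (17.87, 17.82 and 16.72 against 17.78, 18.07 and 17.84, log2 fold change 0.42) and of the second Rpl23 probe (17.69, 17.55 and 17.19 against 17.84, 18.02 and 17.95, 0.46). Rpl13 read 14.52, 14.59 and 13.47 against 14.96, 14.96 and 14.94, a log2 fold change of 0.76. Rpl13a, whose probe elsewhere is described above, read 13.68, 13.61 and 12.56 against 14.39, 13.91 and 14.16, a log2 fold change of 0.87. Rps19, the gene most often affected in Diamond-Blackfan anemia, read 16.21, 16.25 and 15.15 against 17.22, 16.83 and 16.47, a log2 fold change of 0.97. Rpl32 was the one feature whose groups overlapped. None of these 5 passed the test, with adjusted p between 0.169 and 0.595. Of the 13 genes with features at both positions, 12 had every value in the middle above every value elsewhere, the exception being Rpl17. Rps7, Rpl41, Rpl4, Rpl32, Rps19, Rps26 and Rps27l, 7 genes, were measured only in the middle.

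**Figure D4:**
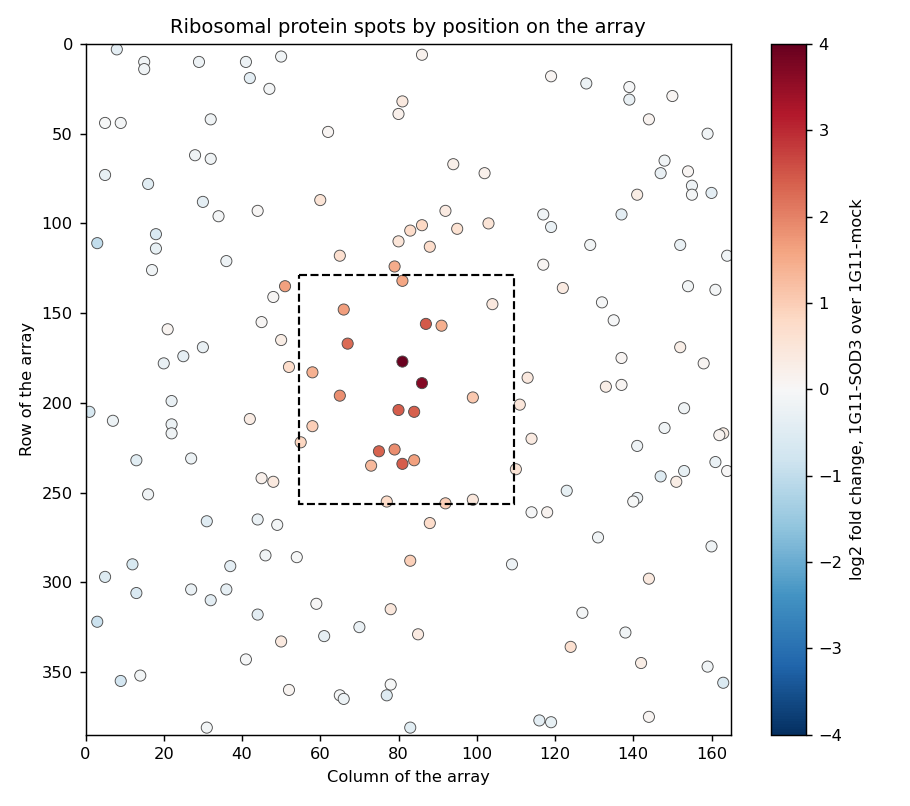
Position of the 177 ribosomal protein spots on the array by column (horizontal axis) and row (vertical axis), colored by log2 fold change of 1G11-SOD3 over 1G11-mock; the dashed box is the middle that was reported apart. Spots in the box are red, most strongly near its center, many but not all spots next to it are pale red, and many of those farther out are near 0 or pale blue.

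The position dependence reached past the edge of the middle. Among the 147 single-spot features elsewhere, 54 lay within 64 rows and 27 columns of the box, and their median log2 fold change was 0.07 (31 positive and 23 negative). The other 93 had a median of -0.16 (24 positive and 69 negative). As an alternative, a smooth surface of each array's deviation from the mean over all arrays was therefore estimated. It used spots that were no ribosomal protein probes and was subtracted from that array before normalization. The log2 fold change was set beside the group difference of the surfaces at the same place. Over the 139 bright members elsewhere, they had a Pearson r of 0.79 and a Spearman rho of 0.68, and over the 20 bright members of the middle 0.90 and 0.93. These are descriptions, since the features share the arrays. The surface used no member spot, and it also lowered the median standard deviation of the group difference among copies of 192 other probes printed 10 times from 0.44 to 0.17 on the log2 scale.

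With the surface subtracted, the median over the 148 members elsewhere was 0.03, beside 0.09 over all features elsewhere, and 142 of 148 were closer to 0 than 0.5. The sign of 51 members changed. As without it, 1 member elsewhere was called, beside 1.03% of all features elsewhere called higher and 0.792% lower (1.15% and 1.84% of those well above background on all arrays). Rpl17 (A_55_P1998461) moved to 0.34 (adjusted p = 0.607), Rpl26 to 0.45 (0.218), Rpl23a to 0.17 (0.68) and Rps16 (A_55_P2132844) to -0.03 (0.959). On the low side, Rps3 (A_51_P318640) moved to -0.38 (0.504), Rpl5 to -0.26 (0.497), Rps27 (A_55_P2155438) to -0.17 (0.658), Rps15 to -0.27 (0.577) and Rpl22l1 to -0.21 (0.785).

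In the middle, the surface left 2 of 21 members called, Rps16 at 1.43 (adjusted p = 0.0358) and Rps7 at 1.24 (adjusted p = 0.0258), and the median was 0.14. Of all features of the middle 1.93% were then called higher and 18.2% lower, and of those well above background on all arrays 5.27% higher and 2.51% lower. The other 4 called probes moved to 0.79 for Rpl22, 0.07 for Rpsa, -0.04 for Rplp0 and -0.25 for Rpl41. The 7 near-identical pairs then differed by 0.01 to 0.85 with a median of 0.47. The 8 pairs that both lay elsewhere then differed by 0.04 to 0.29 with a median of 0.15. Rps16 and Rps7 lay where the group difference of the surfaces was among the highest, at 2.87 and 2.83. Whether what remained there belongs to the position was not tested. The surface suits bright spots only: over all features of the middle, most of them dim, it moved the median from 0.18 to -0.65, and over the bright ones from 1.02 to 0.24.

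**Figure D5:**
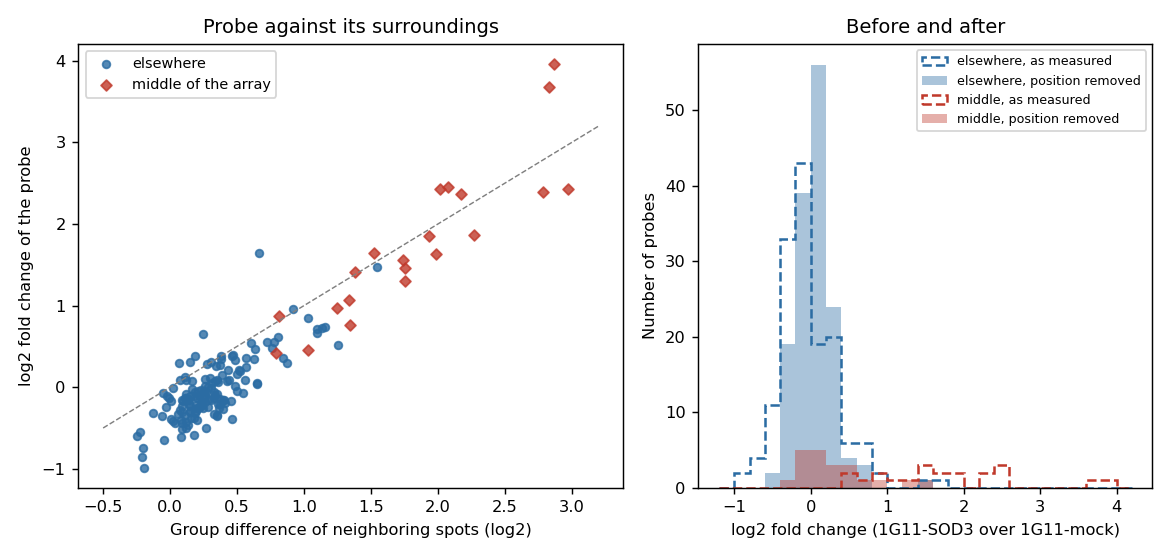
Left, log2 fold change of each ribosomal protein probe (vertical axis) against the group difference of neighboring spots that are no members (horizontal axis, log2), with the line of equality dashed; right, number of probes by log2 fold change as measured (dashed) and with position removed (filled). The diamonds of the middle rise with their surroundings, which reach 2.97. The highest, Rps16 (3.96) and Rps7 (3.68), lie above the line, with surroundings at 2.87 and 2.83. With position removed 142 of 148 probes elsewhere and 15 of 21 in the middle lie within 0.5 of 0.

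Different probes of a gene set the resolution for single ribosomal protein genes. Of the 49 genes with more than 1 feature elsewhere, 27 had log2 fold changes of both signs, and the range between the probes of a gene had a median of 0.40 and reached 1.85 for Rpl17. Ribosomal protein genes have many processed copies in the genome, and for 10 probes of 5 genes (Rps27 with 4, Rps29 with 3, Rpl13, Rpl36 and Rps4x) the array annotation gave a chromosome other than that of the gene in RefSeq. All 4 Rps27 probes, for example, were placed on chromosome 9 while the gene is on chromosome 3. How far these probes detect copies was not tested.

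A feature of the genes that the rule did not use is the start of their transcripts. Of the 61 member genes with a RefSeq start in GRCm38.p6, 21 (34.4%) had a run of at least 5 C or T that began with C within 2 bases of that start, on the strand of the gene, as had 10.6% of all 27025 gene symbols in the table. Windows of 30 bases are shown for a stalk, a large subunit and 3 small subunit genes that are described above, with the run in capitals, and the run of Rpl13a reaches the end of its window.
Rplp2 (chr7:141447637-141447666, + strand): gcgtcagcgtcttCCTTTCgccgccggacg
Rpl13a (chr7:45128730-45128759, - strand): aaaccctgcgacaagaCCTCCTCCTTTCCC
Rps6 (chr4:86857352-86857381, - strand): agcggaagtcgggCCTCTTTTTCgtgacgc
Rps18 (chr17:33955650-33955679, - strand): acgtcacttccgCTCTCTCTTCCacaggag
Rps27 (chr3:90213633-90213662, - strand): tttccgctttcgCTCCTTTCCggcggtgac
These 5 genes had log2 fold changes between -0.21 and 0.21 with their brightest probes elsewhere. Over all probes elsewhere, Rps27 ran from -0.75 to 0.08 and Rps18 from -0.55 to 0.21. Rps6 ran from -0.50 to -0.21 and Rpl13a from -0.40 to -0.05, while Rplp2 had 1 probe. A match describes the annotated start only, and a gene without one may start elsewhere in these cells.

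Genes that work with the ribosome were read from 5 companion lists. Elsewhere on the array 0 of their 141 features were called by limma, and at an unadjusted p under 0.05 14 were higher and 14 lower (19.9%, beside 12.7% of all features elsewhere). Elongation and termination factors (14 features, median 0.06), initiation factors (39, -0.12), ribosome biogenesis factors (52, 0.03), and regulators of translation and ribosome stress (33, -0.16) had medians near those of the ribosomal proteins. With the replicate block 2 of these features were called, Nop16 at 1.06 (adjusted p = 0.041) and Mdm2 at -1.41 (adjusted p = 0.0125). Mdm2 was also called lower with the processed signal (-1.25, adjusted p = 0.024), 75th percentile scaling (-1.28, 0.0267) and the position surface (-1.15, 0.0242). Nop16 was also called higher with 75th percentile scaling, cyclic loess and dim probes left out, and Eef1g with the processed signal (1.05, 0.0453). Fau, Gnb2l1, Rps3a1 and Rpl36al, ribosomal proteins outside the rule by their names, did not pass the test. Fau, which encodes Rps30, was at -0.14 on the log2 scale (adjusted p = 0.82), and Gnb2l1, also called Rack1, at 0.14 (adjusted p = 0.835). Rps3a1 gave 0.71 (adjusted p = 0.282) with A_55_P2136385, whose groups were apart, and -0.33 (adjusted p = 0.61) with A_51_P292357. With the surface subtracted the first was at -0.015. Rpl36al was at -0.15 (adjusted p = 0.894).

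In the middle, 7 of 17 companion features were called, all higher in 1G11-SOD3, beside 11.9% of all features there and 24.2% of those well above background on all arrays. Eif2b1, Eif4g2, Tsr1 and Eif2ak2 were well above background on only 2 1G11-mock arrays each, so the last share does not cover them. Of the initiation factors, Eif2b1, a subunit of the exchange factor of eIF2, read 9.52, 8.43 and 8.33 on the 1G11-mock arrays and 13.69, 12.17 and 13.35 on the 1G11-SOD3 arrays, a log2 fold change of 4.31 (adjusted p = 0.00038). Eif4g2, a translation initiation scaffold, read 9.48, 7.98 and 8.80 against 12.88, 12.13 and 13.72, a log2 fold change of 4.15 (adjusted p = 0.000545). Both remained called with the surface subtracted, at 1.76 (adjusted p = 0.00381) and 1.24 (adjusted p = 0.0236). Polr1c, a subunit of RNA polymerases I and III, was higher by 1.85 on the log2 scale (adjusted p = 0.0191), Tsr1, a small subunit assembly factor, 1.82 (adjusted p = 0.0287), and Rpf2, which helps place 5S ribosomal RNA, 1.56 (adjusted p = 0.0197). Eif2ak2, the double-stranded RNA kinase, had 1.89 (adjusted p = 0.0467). Gar1, a protein of small nucleolar particles, was the seventh, at 1.23 (adjusted p = 0.0301). With the surface subtracted these 5 lay between 0.54 and 0.70 and did not pass the test, and the count of called companion features in the middle was 9 without replicate 1 and 3 and 4 without replicates 2 and 3 of 1G11-mock, and 3, 5 and 2 without replicates 1, 2 and 3 of 1G11-SOD3.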

How the data were processed

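Total RNA of 3 1G11-mock and 3 1G11-SOD3 samples was labeled with Cy3 and hybridized to Agilent arrays. The authors deposited the scanner output of Feature Extraction 10.7.3.1 for each array, with mean and median pixel intensity, local background intensity and a processed signal per spot, not normalized between arrays. They also deposited a log2 table, corrected with normexp (offset 50) and quantile normalized. Every column of that deposited log2 table was recomputed to within 0.005 from median pixel intensities with control spots kept.

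Here the mean intensity was corrected with normexp (local background median, offset 50), log2 transformed and, without control and outlier spots, quantile normalized (limma 3.58.1, R 4.3.3). Spots of a probe were averaged separately inside and outside the middle of the array. The lines were compared with limma (empirical Bayes) over all features with Benjamini-Hochberg adjustment, and a call was a change over 2-fold with an adjusted p below 0.05. The position surface was a Gaussian average (SD of 8 rows and 4 columns) of the deviations of spots that were well above background on at least 3 arrays, were printed once and were no members. The fit was tested on simulated data.

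The array annotation supplied gene names and positions, without a genome build, and 4 of 167 placed member probes lay inside their gene in RefSeq GRCm38.p6, so the build is another. Members matched RefSeq by symbol for all 81 genes, and 61 had a start in its table. Summaries used Python 3.11.15 (pandas 2.3.3, numpy 2.4.6) and plots matplotlib 3.10.9.

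Values by array were given for the 5 highest and 5 lowest there, Rpsa, the stalk genes, Rps6, Rpl5, Rpl11, Rpl13a, Rps18 and 6 paralog pairs (brightest probe), the 5 highest and 5 lowest in the middle, probes at both positions, and up to 3 called genes a companion list. Some genes that these rules name are not reported here. Other genes and probes were named after their values were seen. The members, lists and tests were chosen with earlier results of these data known. Alternatives covered background correction, pixel summary, scaling, control and outlier spots, dim probes, variance model, position, copies and each array left out; for the companion lists they were added after seeing the data. Same-numbered arrays of both lines deviated together (correlations of 0.141, 0.144 and 0.235 over 15178 features, against -0.158 to 0.051 for other pairs), so the replicate number was also fitted as a block. The number of arrays and the signal over background limit the precision.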

Additional observations from a re-analysis of the deposited data

How the results depend on the processing

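The number of ribosomal protein features called elsewhere was 3 with scaling to the 75th percentile and 2 with the replicate block, and 1 to 3 with an array left out (3 without replicate 1 of 1G11-SOD3). In the middle it was 14 with 75th percentile scaling and 2 with the position surface. The companion lists, with 0 calls elsewhere, had 2 with the processed signal, 75th percentile scaling and the replicate block each, and 1 with cyclic loess, the position surface and dim probes left out each. In the middle their count was 4 with the processed signal, 11 with 75th percentile scaling, 2 with the position surface and 2 to 9 with an array left out. The replicate block, for which same-numbered arrays were paired, gave 8 called ribosomal protein features in the middle (adding Rpl36a and Rpl36) and 9 companion features (adding Nip7 and Eef2). The median of the members elsewhere was 0.0533 with the processed signal (all features -0.49), -0.0525 with 75th percentile scaling (all features -0.35), 0.0321 with the position surface and -0.1325 to -0.0382 with an array left out. The Sod3 probe lay between 3.18 and 5.05 with an array left out, and without replicate 3 of 1G11-SOD3 it was 4.29 (adjusted p = 0.0505), and with the position surface 2.70 (adjusted p = 0.0132). Of the 6 calls in the middle, those on Rps16 and Rps7 held in every setting run. With no background correction Rplp0 (adjusted p = 0.0705) and Rpl22 (0.0585) were lost, and with the processed signal Rplp0 (1.25, adjusted p = 0.0552) and Rpl41 (1.22, adjusted p = 0.106).

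Log2 fold changes that changed sign, with the cause not tested beyond the setting itself, were as follows. With the processed signal, Rpl22l1 was 0.21, Rplp0 0.073, Rplp1 0.0495, Rpl13a 0.41, Rps18 -0.030, Rpl3 0.10, Rpl10 0.068, Rpl22 0.11 and Rps27 0.33, and in the middle Rpl32 was -0.40 and Rpl23 -0.29. With 75th percentile scaling, Rpl13a was 0.10, Rpl22 0.0017 and Rpl39 0.030. With cyclic loess, Rpl11 was -0.044 and Rpl7l1 0.083. With the position surface, Rps16 was -0.028, Rplp1 0.073, Rplp2 0.005, Rpl13a 0.014, Rpl10 0.035, Rpl39 0.17, Rps27 0.072, Rpl7 0.12 and Rpl7l1 0.15, and in the middle Rpl41 was -0.25, Rpl32 -0.0035, Rpl23 -0.16 and Rpl13 -0.17. With an array left out, the range crossed 0 for Rps6 (-0.49 to 0.28), Rpl22 (-0.39 to 0.17), Rpl7l1 (-0.21 to 0.37), Rplp2 (-0.13 to 0.034), Rpl13a (-0.29 to 0.22), Rpl10 (-0.58 to 0.085), Rpl7 (-0.24 to 0.039), Rps27 (-0.23 to 0.038) and Rpl39 (-0.34 to 0.047). Of the other values for the named probes, 645 kept direction and side of the threshold, 8 passed it and 6 lost it. Probes that were well above background on no array, such as those of Rpl3l, Rpl10l and Rpl39l, have no fold and were left out of these counts.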
